A study of Mus musculus with 6 samples.

Results

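The muscle microRNA loci examined here are 3 windows of the mouse genome, each of which contains a pair of microRNA genes: Mir206 and Mir133b on chromosome 1, Mir1a-1 and Mir133a-2 on chromosome 2, and Mir1a-2 and Mir133a-1 on chromosome 18. The windows are given on build mm9 and run from 20620000 to 20695000 on chromosome 1, from 180090000 to 180170000 on chromosome 2 and from 10750000 to 10820000 on chromosome 18. Every H3K27ac peak overlapping a window by at least 1 bp was taken as a member. This gave 9 of the 57101 peaks listed for proliferation, 50 of the 89717 peaks listed for 36 h of differentiation and 58 of the 97144 peaks listed for 72 h. Merging across the lists wherever peaks overlapped gave 112926 regions in the series, of which 57 lay in the windows. The rule used positions only, but the loci were proposed with earlier results of these data known.

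MicroRNAs are short RNAs that pair, mainly through the seed (bases 2 to 8), with target messenger RNAs and lower their translation or stability. The members of the miR-1/206 family and of the miR-133 family are made together from shared precursor transcripts in striated muscle, where the miR-1/206 family is known for promoting differentiation and the miR-133 family for effects on myoblast proliferation and on serum response factor. miR-206 and miR-133b are found mainly in skeletal muscle, whereas miR-1 and miR-133a are made in heart and skeletal muscle. H3K27ac, acetylation of lysine 27 of histone H3, marks active promoters and enhancers, and the myogenic factors of the MyoD family and MEF2 are known to bind regulatory DNA at these microRNA loci.

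The cells were C2C12, a mouse myoblast line that fuses into myotubes in culture, in a study of TAp63 in myogenesis. The groups used were proliferating myoblasts, cells after 36 h of differentiation and cells after 72 h of differentiation, with no genetic change or added agent given in the labels of these samples. Each stage had 1 H3K27ac library, made from the pooled DNA of 4 independent immunoprecipitations, and an input library with no file of its own among those analysed here. No replicate library existed, so differences between stages carry no test and could not be set against a spread between cultures. Read totals are not known here. Relative to the proliferation library, the recovered depth (explained with the summit values) of the 36 h library was 1.20 and that of the 72 h library 1.10. Muscle marker genes were not checked, because the peaks are on mm9 and no mm9 gene annotation was used.

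Of the 5 mature microRNAs matched in RefSeq (GRCm38.p6) for the loci on chromosomes 1 and 2, 4 are shown first, because they allow some products to be compared. The fifth, mmu-miR-133b-5p, is left out. The seed is in capitals.
mmu-miR-206-3p: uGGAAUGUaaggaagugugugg
mmu-miR-133b-3p: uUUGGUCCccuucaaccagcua
mmu-miR-206-5p: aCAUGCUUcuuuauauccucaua
mmu-miR-1a-1-5p: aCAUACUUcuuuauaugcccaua
Entries matched for 3 of the 6 genes, Mir206, Mir133b and Mir1a-1, and for Mir1a-1 only the 5p product was matched. The 3p products of Mir206 and Mir1a-1 were therefore not compared, and the 5p products do not show whether those share a seed. The 5p products of Mir206 and Mir1a-1, from different chromosomes, were identical at 20 of 23 bases. Counted from 1 at the 5′ end, with the base of miR-206-5p first, they differed by G5A within the seed and by C17G and U19C outside it. The 3p products of Mir206 and Mir133b, transcribed from the same locus on chromosome 1, had different seeds. In the RefSeq gene table Mir206 and Mir133b lay within the long noncoding RNA gene Lincmd1, and Mir1a-1 and Mir133a-2 within the noncoding host gene Mir1a-1hg. Mir133a-1 and Mir1a-2 lay within both the noncoding gene Mir133a-1hg and the protein-coding gene Mib1, which encodes a ubiquitin ligase of Notch signalling. The positions of these genes are on GRCm38, so H3K27ac peaks were not placed relative to the hairpins or to the start of a host transcript.

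H3K27ac was under peaks over much more of all 3 loci in differentiating cells than in proliferating myoblasts. At the Mir206 and Mir133b locus, 9 peaks covered 2.85 kb of the window in proliferation, 23 peaks covered 27.2 kb at 36 h and 28 peaks covered 28.9 kb at 72 h. At the Mir1a-1 and Mir133a-2 locus no peak was listed in proliferation, whereas 20 peaks covered 20.1 kb at 36 h and 24 peaks covered 29.3 kb at 72 h. The Mir1a-2 and Mir133a-1 locus likewise had no listed peak in proliferation, with 9.33 kb under 7 peaks at 36 h and 9.46 kb under 6 peaks at 72 h. Peaks thus occupied 38.5%, 36.6% and 13.5% of the 3 windows at 72 h, in the order in which the loci are given.

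**Figure D1:**
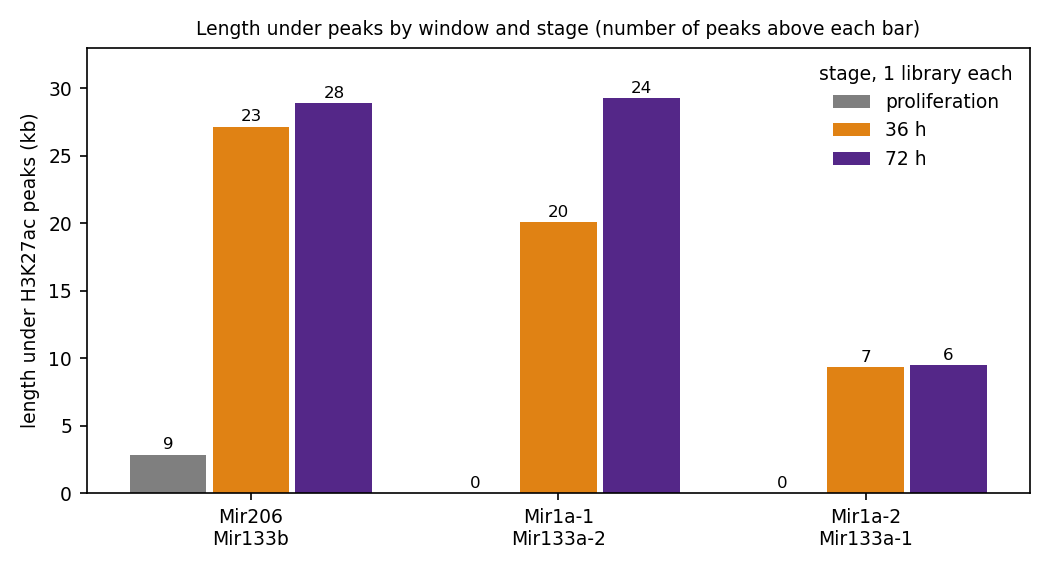
Length under H3K27ac peaks in kb (vertical axis, from 0) in each microRNA window, with 1 bar per stage and 1 library per stage; the number above each bar is the number of peaks. Proliferation has 2.85 kb at Mir206 and Mir133b and no listed peak at the other loci, while the differentiation stages have between 9.33 and 29.3 kb.

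The change in length from 36 h to 72 h differed between the loci in these single libraries. Under all peaks of the series the length was 56.0 Mb at 36 h and 63.7 Mb at 72 h. From 36 h to 72 h the length under peaks rose by 9.19 kb at Mir1a-1 and Mir133a-2, by 1.74 kb at Mir206 and Mir133b and by 0.131 kb at Mir1a-2 and Mir133a-1. Only the first of these differences kept its size, within 1.5 times, under each of the alternative settings tried. At Mir206 and Mir133b the difference between 72 h and 36 h turned to -0.489 kb when only peaks with a −log10 q of at least 5 were used, and to -0.313 kb with lists of equal size.

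To set these values beside the rest of the genome, mm9 was divided into tiles of the length of each window, and the tiles with a peak at any stage were kept. A tile was counted as more acetylated if the later stage had at least 2 times the length under peaks of proliferation and at least 1 kb more. Among 75 kb tiles 26.8% met this at 36 h and 33.7% at 72 h; the Mir206 and Mir133b window, with 9.51 and 10.1 times the proliferation length, met it at both stages. Among 80 kb tiles the shares were 26.9% and 34.4%, and among 70 kb tiles 26.5% and 33.7%. The windows on chromosomes 2 and 18, with no length under peaks in proliferation, met it at both stages. A gain of this kind was therefore common in the series, and the loci differed in the size of the gain. An increase over proliferation as large as that at Mir206 and Mir133b was found in 0.126% of 16644 tiles at 36 h and in 0.108% at 72 h. For Mir1a-1 and Mir133a-2 it was 0.364% of 15941 tiles at 36 h and 0.0690% (11 tiles, 1 of which overlaps the window itself) at 72 h. The increase at Mir1a-2 and Mir133a-1 was less unusual, with 3.05% of 17389 tiles at 36 h and 3.91% at 72 h. The median tile gained 510 bp at 36 h and 808 bp at 72 h at the 75 kb length. Tiles lie on a fixed grid and can cut a locus, whereas the windows were placed around the loci. No tile overlapping the Mir206 and Mir133b window, or the Mir1a-2 and Mir133a-1 window, reached the increase of that window itself. These shares can therefore understate how often a window fitted to a locus would gain as much, which was not tested.

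**Figure D2:**
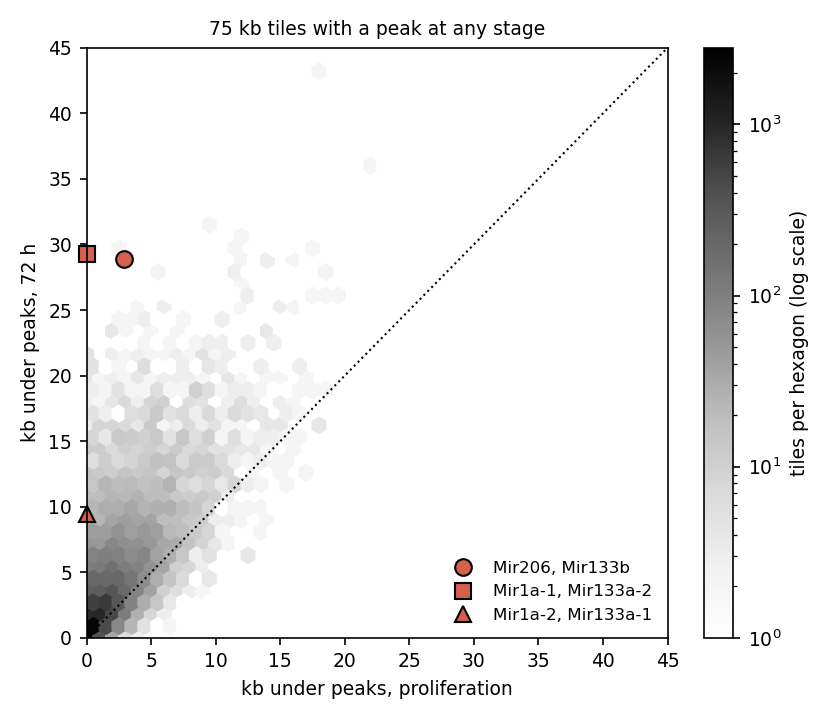
Length under H3K27ac peaks in proliferation (horizontal axis, kb) and at 72 h (vertical axis, kb) for 75 kb tiles of the genome with a peak at any stage, shaded by the number of tiles on a log scale, with the 3 microRNA windows (75, 80 and 70 kb long) as red symbols; the dotted line marks equal length, and 3 tiles lie outside the axes. The Mir206 and Mir1a-1 windows lie near 29 kb at 72 h with 2.85 and 0 kb in proliferation, and the Mir1a-2 window lies at 9.46 kb above 0.

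Of the 57 merged regions in the windows, 23 (40.4%) were called at both differentiation stages but not in proliferation, and are termed gained; over all regions of the series the share was 22.3%. Regions with a peak at all 3 stages numbered 4 (7.02%, compared with 25.6% in the series), all of them in the Mir206 and Mir133b window. A further 21 (36.8%, compared with 23.9%) had a peak at 72 h only and 9 (15.8%, compared with 15.9%) at 36 h only. No region had a peak in proliferation only, compared with 6.70% in the series. Likewise none was shared by proliferation and 36 h alone (1.70% in the series) or by proliferation and 72 h alone (3.95%). Gained regions in the windows had a median width of 1840 bp, against 581 bp for all gained regions of the series. Regions of 1 window adjoin one another and are not independent, so the absence of a class sets no bound on its share. Where peaks up to 1 kb apart were merged, the gained regions in the windows fell to 8 in number.

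The values at the summits were recovered as numbers of DNA fragments. The authors' peak caller gives a fold and a p at each summit, which together fix the number of H3K27ac fragments there and the local background, read here as input signal. Numbers of H3K27ac fragments given below were divided by the relative depth of the library, so that they refer to the depth of the proliferation library. Their exact 95% Poisson intervals cover counting error only. Local background values were not divided by depth. They are on the scale of the peak caller, on which fragments are multiplied by a factor for each library, and cannot be set directly against the fragment numbers. Fold values are the authors' and rank peaks within 1 list. At regions held by all 3 lists in the whole series, the median signal above background at equal depth, as a ratio to proliferation, was 1.03 for 36 h and 1.18 for 72 h, which is the general shift against which the microRNA loci can be read.

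**Figure D3:**
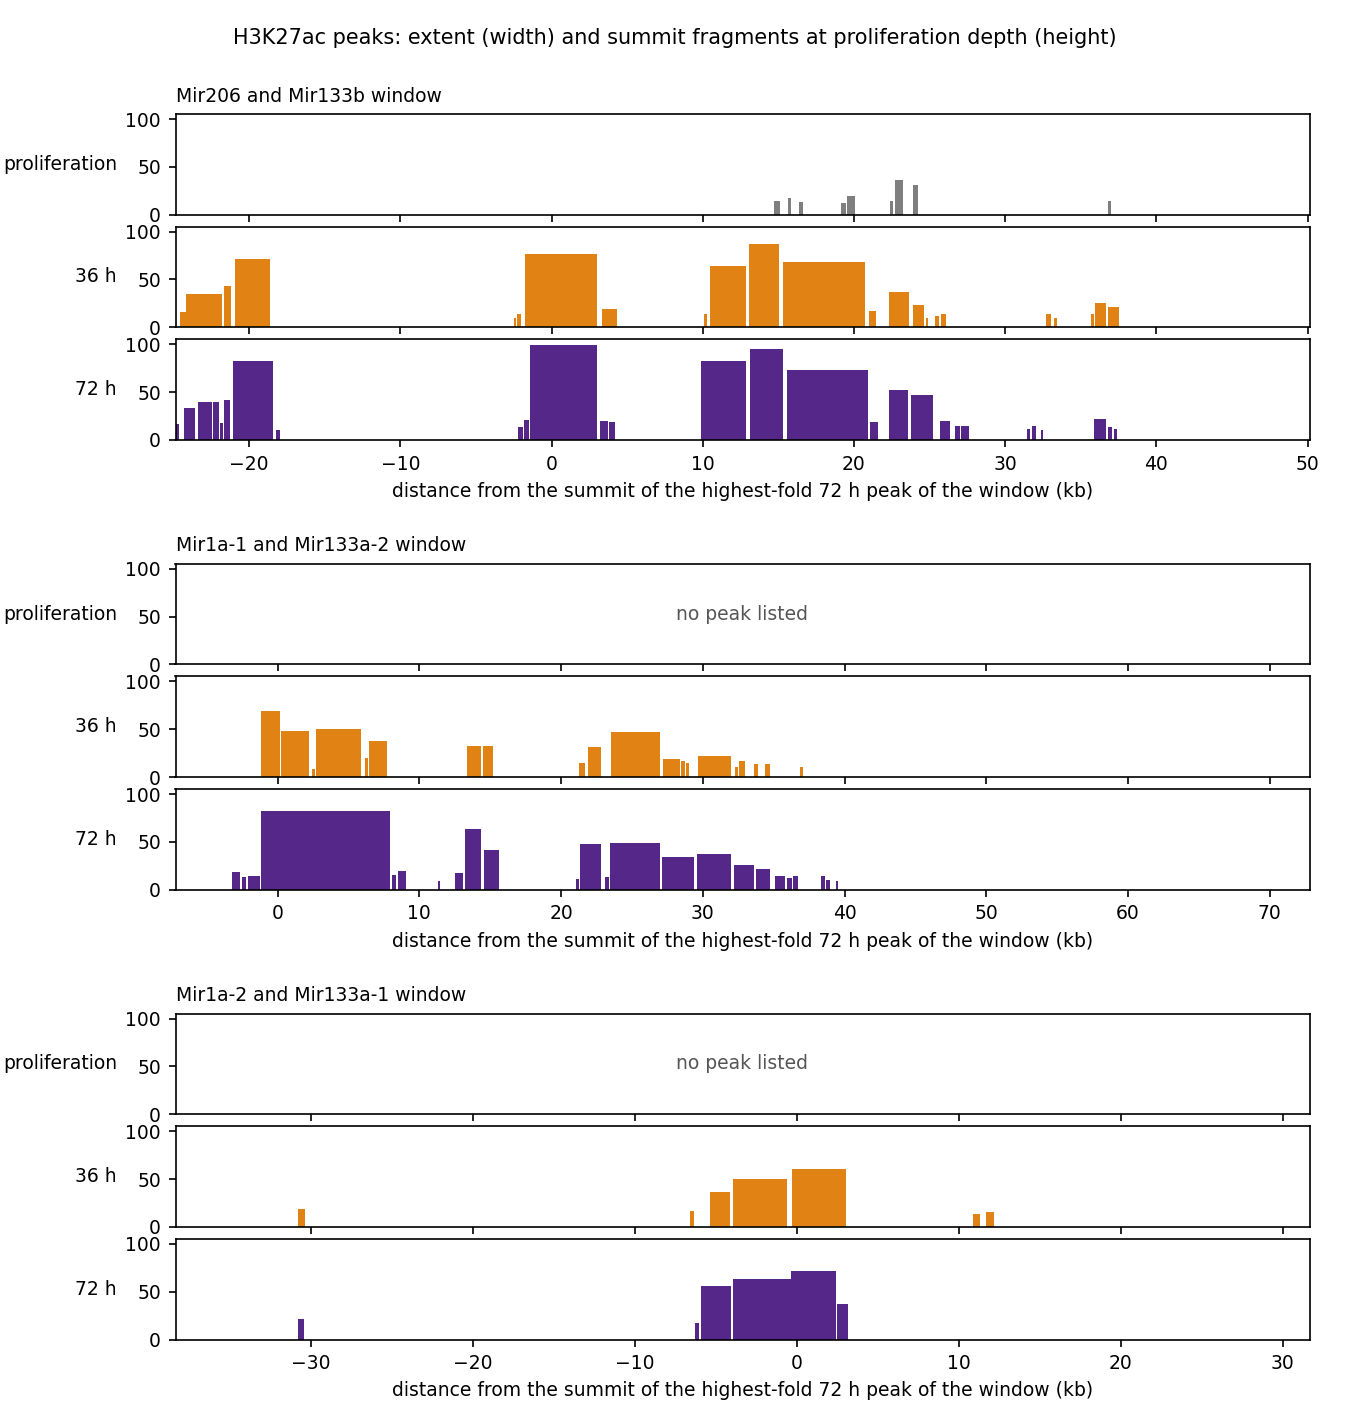
H3K27ac peaks of each window and stage, drawn to scale as blocks whose width is the listed peak and whose height is the number of summit fragments at proliferation depth, not a signal profile; the horizontal axis is the distance in kb from the summit of the 72 h peak with the highest fold in that window. The blocks of 36 h and 72 h stand at nearly the same positions, and in proliferation 9 low and narrow blocks appear in the right part of the Mir206 and Mir133b window.

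At Mir206 and Mir133b, the peaks formed 4 blocks separated by gaps of over 3 kb, a distance chosen after the positions had been seen. The first, from 20618810 to 20626944, and the second, from 20642374 to 20649218, had no peak in proliferation. Within the window they held 5.58 and 6.13 kb under peaks at 36 h and 5.82 and 5.91 kb at 72 h. The first block crosses the left edge of the window, and its leftmost region, counted as gained, had its 36 h peaks outside that edge. The third block, from 20654788 to 20672513, held 8 of the 9 proliferation peaks. Its length under peaks was 2.70 kb before differentiation, 13.2 kb after 36 h and 15.3 kb after 72 h. The fourth, from 20676299 to 20682424, was the weakest, with 0.155 kb, 2.19 kb and 1.91 kb at the successive stages. Peaks were thus listed in the third block and, with 1 peak, in the fourth before differentiation, and the first and second blocks appeared in the lists at 36 h.

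The 3 regions of this locus with the highest fold at 72 h were all gained. The region from 20643048 to 20647864, in the second block, had 77.0 fragments (interval 62.0 to 94.4) at 36 h and 99.3 (81.5 to 120) at 72 h. Its 72 h summit, at 20644873, lay 1 bp from that of 36 h, and 302 of the 97144 peaks of 72 h had as high a fold. The region from 20654788 to 20657734, in the third block, had 63.6 fragments (50.1 to 79.6) at 36 h and 82.9 (66.7 to 102) at 72 h. In the first block, the region from 20623820 to 20626475 had 71.1 fragments (56.8 to 87.9) at 36 h, where it had the highest fold of the window, and 82.9 (66.7 to 102) at 72 h. For each of these 3 regions the intervals of 36 h and 72 h overlapped, while proliferation had no listed peak. Had these sites carried the signal of 72 h in proliferation, scaled by depth and by the general shift, 84.3, 70.4 and 70.4 fragments would have been present there, where 18 sufficed for a call at a high local background. These regions were picked by their 72 h fold, which favours high values at 72 h over the other stages. The expected numbers therefore describe picked maxima. Regions at the other loci were named by the same rule.

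The 4 regions called at every stage did not behave alike. The widest region of the locus, from 20657963 to 20665774, held 5 short proliferation peaks of 12 to 19 fragments. At 36 h it held 2 peaks with up to 87.0 fragments (71.1 to 105), and at 72 h 2 peaks with up to 94.7 (77.4 to 115). Its length under peaks went from 1.66 kb to 7.41 and 7.53 kb. The highest of its proliferation peaks, with an interval of 11.4 to 29.7 fragments, did not reach the range of either later stage. Its summit was at 20664628, and those of the highest peaks at 20659436 (36 h) and 20658326 (72 h). Maxima at different sites of the region were thus compared. By contrast, the region from 20667219 to 20668499 held the strongest proliferation peak of the locus, from 20667562 to 20668133, with 36.0 fragments (25.2 to 49.8). It had 36.8 fragments (26.7 to 49.4) at 36 h and 51.9 (39.3 to 67.3) at 72 h, so that the intervals of all 3 stages overlapped. Its proliferation peak had a fold of 10.9, the highest of the window in that list and above that of 89.1% of all proliferation peaks.

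At the other regions called at every stage, named after their values had been seen, the proliferation interval also overlapped those of both later stages. The region from 20668652 to 20670129 had 31.0 fragments (21.1 to 44.0) in proliferation, 23.4 (15.6 to 33.9) at 36 h and 46.5 (34.6 to 61.1) at 72 h. The interval of 72 h lay just above that of 36 h and overlapped that of proliferation. Its local background, not scaled for depth, was 4 in proliferation and at 36 h and 1.08 at 72 h. The part of this difference in the result was not tested. In the fourth block, the region from 20681661 to 20682424 had 14.0 fragments (7.65 to 23.5) in proliferation, 20.9 (13.5 to 30.9) at 36 h and 13.7 (7.65 to 22.5) at 72 h. Among the 4 regions, the widest was the only one in which the proliferation interval lay apart from those of both later stages. All 9 proliferation peaks of the locus were overlapped by a peak at 36 h and by one at 72 h. The share of such peaks in the series was not computed. By length, 75.7% of that under all proliferation peaks was also under 36 h peaks and 80.9% under 72 h peaks.

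At Mir1a-1 and Mir133a-2 the peaks of both differentiation stages lay in the left part of the window, in a block spanning 180094016 to 180112801 and another spanning 180118246 to 180136718. No peak of any stage lay between 180136718 and the right edge of the window. The strongest and widest region, from 180096045 to 180105148, had 69.4 fragments (55.3 to 86.1) at 36 h and 82.0 (65.9 to 101) at 72 h. It was listed as 6 peaks with 8.18 kb under them at 36 h and as a single peak of 9083 bp at 72 h, a width reached by 33 of the 97144 peaks of that list. The region from 180120665 to 180124212, in the second block, had 46.8 fragments (35.4 to 60.8) at 36 h and 49.2 (36.9 to 64.2) at 72 h, on almost the same summit (13 bp apart). In the region from 180110407 to 180111559, 32.6 fragments (23.2 to 44.6) were found at 36 h and 63.8 (49.7 to 80.6) at 72 h. These intervals did not overlap, in contrast to the other named regions of this locus.

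The further length at 72 h in this window came partly from wider peaks and partly from regions called at 72 h only. The first block had 9.88 kb under peaks at 36 h and 14.6 kb at 72 h, and the second 10.2 and 14.7 kb. All 8 gained regions had more fragments and more length at 72 h than at 36 h. A further 14 regions were called at 72 h only and 1 at 36 h only. The 72 h only regions were short, from 147 to 884 bp, and weak, with 9.11 to 19.1 summit fragments. In the 36 h library a call needed 9 fragments at the genome background, before scaling for depth. At the 95% quantile of the local background it needed 15. Whether these regions had less acetylation at 36 h was not tested. The median ratio of summit fragments of 72 h to 36 h over the 8 gained regions was 1.54, compared with 1.16 over the 25164 gained regions of the series. In that set 65.5% of regions had more fragments at 72 h. The share of that set with more length at 72 h was not computed, and the length under all peaks of the series was also larger at 72 h. At Mir206 and Mir133b the corresponding ratio was 1.14, with 9 of 11 gained regions higher at 72 h, and at Mir1a-2 and Mir133a-1 it was 1.23, with 4 of 4 higher.

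At Mir1a-2 and Mir133a-1, nearly all of the length lay in 1 block between 10781773 and 10791495. Peaks took up 8.04 kb of it at 36 h and 9.06 kb, or 93.2% of the block, at 72 h. The region from 10788016 to 10791495 had 60.2 fragments (47.1 to 75.8) at 36 h and 72.0 (57.0 to 89.7) at 72 h. Next to it, the region from 10784408 to 10787966 had 50.2 fragments (38.3 to 64.6) at 36 h and 63.8 (49.7 to 80.6) at 72 h. The region from 10782424 to 10784263 had 36.8 fragments (26.7 to 49.4) at 36 h and 55.6 (42.5 to 71.4) at 72 h. The intervals of the differentiation stages overlapped in each of the 3 regions. The highest-fold summits of 36 h and 72 h lay 1151, 2233 and 148 bp apart in the same order. Over the gained regions of each locus the median distance was 650 bp here, 144 bp at Mir206 and Mir133b and 78.0 bp at Mir1a-1 and Mir133a-2. Outside the block, a small gained region from 10757551 to 10757965 had 18.4 fragments at 36 h and 21.9 at 72 h. A pair of weak 36 h peaks between 10799207 and 10800498, with 13.4 and 15.9 fragments, had no counterpart at 72 h. These last features were named after their values had been seen.

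**Figure D4:**
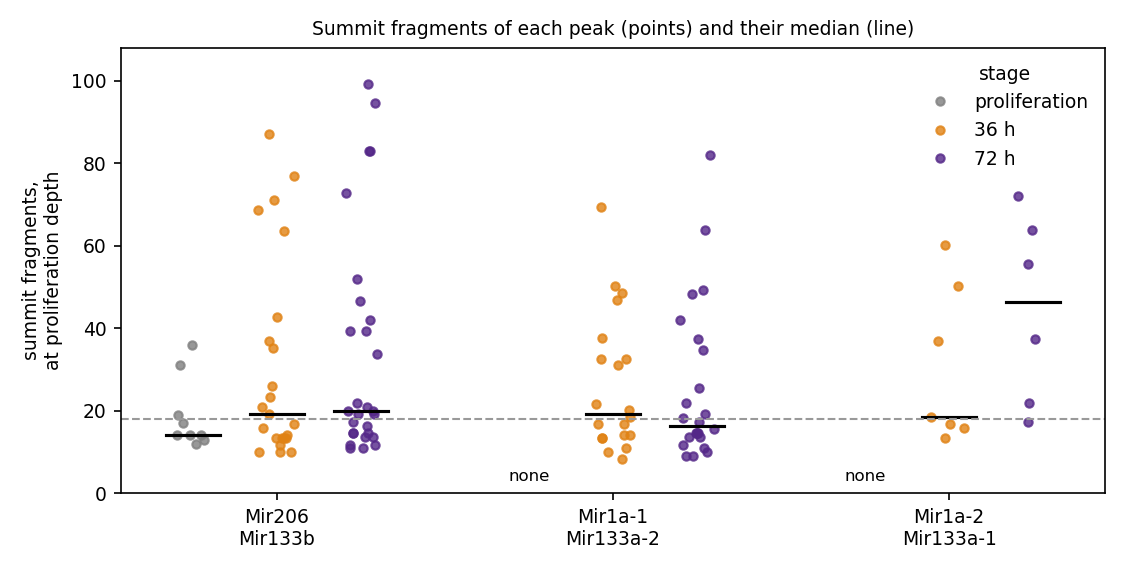
Summit fragments at proliferation depth (vertical axis) of each H3K27ac peak in the 3 microRNA windows, with 1 point per peak, the median as a black line, and the stages in colour; the dashed line marks the 18 fragments that sufficed for a call in proliferation at the 95% quantile of its local background. The 9 proliferation peaks reach at most 36.0 fragments, while the highest peaks of 72 h reach 99.3, 82.0 and 72.0 fragments in the 3 windows.

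In 17 of the 23 gained regions the highest-fold summits of 36 h and 72 h lay within 200 bp of each other, compared with 81.7% of all gained regions of the series. The median distance was 144 bp, against 75 bp in the series. Among gained regions wider than 1 kb the count was 11 of 17, compared with 62.8%, so closeness of the summits did not set these loci apart. Of all bases under a peak at either differentiation stage, both stages covered 76.0% at Mir206 and Mir133b, 65.9% at Mir1a-1 and Mir133a-2 and 76.3% at Mir1a-2 and Mir133a-1. Over all peaks of the series the share was 58.0%. That value was not matched for width, and gained regions were wider in the windows (median 1840 bp) than in the series (581 bp). For proliferation and 72 h the corresponding share was 9.88% at Mir206 and Mir133b, compared with 36.4% in the series. All of the 2.85 kb under proliferation peaks at this locus was also under peaks at 72 h. Over the series the share was 80.9%, so most proliferation length was kept in general.

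The lack of listed proliferation peaks on chromosomes 2 and 18 is limited by the depth of that library. A peak needed 9 fragments at the genome background of proliferation, and 18 at the 95% quantile of the local background of its peaks, so weaker acetylation could not have been listed. The nearest proliferation peaks lay 81.9 kb to the left and 146 kb to the right of the Mir1a-1 and Mir133a-2 window, and 12.3 kb to the left and 582 kb to the right of the Mir1a-2 and Mir133a-1 window. In the 3 windows, 21 peaks of 72 h would have been called in the proliferation library with a chance of 99% or more at equal signal. Of these, 17 had no proliferation peak within 1 kb, compared with 20.1% of all such 72 h peaks in the series. At 36 h the count was 16 of 19, compared with 17.3%. On chromosomes 2 and 18 all such peaks counted, 7 and 4 at 72 h and 8 and 3 at 36 h. No proliferation peak was listed in those windows, so this outcome was fixed in advance. At Mir206 and Mir133b, where it could vary, it was 6 of 10 at 72 h and 5 of 8 at 36 h. Neighbouring peaks of 1 locus are not independent. The exceptions, 4 peaks at 72 h and 3 at 36 h, all lay at Mir206 and Mir133b.

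The local background differed between the loci. Its median in proliferation was 1.21 at Mir206 and Mir133b, or 1.19 times the genome background of that library. Over all proliferation peaks of the series the median was 1.93 times. At 72 h the median was 1.22 times the genome background at Mir206 and Mir133b, equal to it at Mir1a-1 and Mir133a-2 and 1.52 times it at Mir1a-2 and Mir133a-1. A 72 h peak from 20620586 to 20621306 was named after its values had been seen. It stood on a background of 10 and had a fold of 2.30, although it reached 33.7 fragments at proliferation depth. With fragments scaled to the proliferation depth and the background raised to the median of the proliferation peaks, an alternative added after seeing the data, peaks of 72 h numbered 28, 21 and 6 at the 3 loci, and gained regions numbered 23.

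When peaks of 1 list were stitched across gaps of up to 10 kb, the microRNA loci gave long clusters. At 72 h the cluster from 180094016 to 180136718 at Mir1a-1 and Mir133a-2 had 29.3 kb under peaks and ranked 100 of 25499 by that length, while at 36 h it had 20.1 kb and ranked 258 of 23231. The cluster from 20642675 to 20682282 at Mir206 and Mir133b had 23.1 kb at 72 h and ranked 198, and the corresponding cluster at 36 h had 21.6 kb and ranked 213. Peaks at the left edge of this window belonged to another cluster that went on beyond the edge, from 20602463 to 20626944 at 72 h, with 18.5 kb under 21 peaks, and from 20602452 at 36 h, with 18.3 kb under 14 peaks. In proliferation the main cluster at Mir206 and Mir133b had 2.70 kb and ranked 2894 of 18765. The cluster at Mir1a-2 and Mir133a-1 had 9.06 kb and ranked 1308 at 72 h. Ranks in lists of different length show no change between stages.

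The promoters of the host genes Lincmd1 and Mir1a-1hg are given because the microRNA genes on chromosomes 1 and 2 lie within these genes in RefSeq. Whether the transcripts that carry the microRNAs start there was not tested. Each sequence runs from 250 bases before to 50 after the start in RefSeq (GRCm38.p6), on the plus strand, with matches to the motif CANNTG (the E-box, bound by factors of the MyoD family) and to the MEF2 motif in capitals.
Lincmd1, chr1:20669632-20669931: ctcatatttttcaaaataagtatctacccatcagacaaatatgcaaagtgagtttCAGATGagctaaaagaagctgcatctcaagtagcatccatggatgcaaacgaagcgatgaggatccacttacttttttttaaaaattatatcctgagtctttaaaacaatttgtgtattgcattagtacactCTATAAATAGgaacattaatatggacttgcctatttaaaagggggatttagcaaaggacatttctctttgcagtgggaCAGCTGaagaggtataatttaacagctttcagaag
Mir1a-1hg, chr2:180385354-180385653: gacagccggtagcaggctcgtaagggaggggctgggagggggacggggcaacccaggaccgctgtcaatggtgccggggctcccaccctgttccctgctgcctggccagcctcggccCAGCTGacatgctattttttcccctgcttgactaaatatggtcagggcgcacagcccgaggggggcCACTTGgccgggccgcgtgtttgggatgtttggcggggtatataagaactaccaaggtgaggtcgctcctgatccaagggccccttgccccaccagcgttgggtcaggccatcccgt
Both strands were searched. Each promoter held 2 matches to CANNTG, a motif held by 72.3% of the 32817 promoters of the table, and 1 of these in each promoter was CAGCTG, held by 16.3%. In Lincmd1 the CAGCTG began at base 16 after the start, and in Mir1a-1hg 133 bases before it. The Lincmd1 promoter also held a match to the MEF2 motif, CTATAAATAG, which began 63 bases before the start and contains the letters TATAAA. A MEF2 match was held by 1.86% of all promoters, and none was found in the Mir1a-1hg window. Neither promoter held a match to the CArG motif of serum response factor, which 1.63% of promoters held. The promoters differed in composition, with 34.3% G and C in Lincmd1 and 64.3% in Mir1a-1hg. These matches are letters in a sequence, and whether the promoters lie under an H3K27ac peak was not examined because the builds differ.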

How the data were processed

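Peak lists of H3K27ac ChIP-seq in C2C12 cells at 3 stages (1 library each, 6 samples with inputs) were analysed. The submitters' processing notes list BWA, MACS2, deepTools and mm9, with no versions or settings. The deposited lists hold, per peak, a fold (ratio of ChIP to background at the summit), −log10 p and −log10 q values and a score by the authors' peak caller; the score was not used. By stage, the lowest deposited −log10 q was 1.32, 1.32 and 1.30.

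Fragments and local background were solved from fold and p, assuming whole fragments times 1 scale factor per library (0.673, 0.698 and 0.657). This returned the p of 100% of peaks within a relative tolerance of 0.0003, and was tested on simulated data. Relative depth assumes equal genome size settings and fragment lengths in the peak calls, and the reading of the background as input assumes that the input was the control. Peaks were merged where they overlapped by at least 1 bp, and lengths per window were clipped to its edges (lengths of regions and stitched clusters were not). In each window the text names the 3 regions with the highest 72 h fold, the region with the highest fold in each other list, the widest region and any called in proliferation only; others are marked. Members and lists were chosen with earlier results of these data known. Alternatives were stricter lists (−log10 q or fold of at least 5), lists of 57101 peaks each, equal depth, other window edges, merging across 1 kb (for the count of gained regions only) and, added later, a raised background. Python 3.11.15, numpy 2.4.6, pandas 2.3.3, scipy 1.17.1 and matplotlib 3.10.9 were used.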

Additional observations from a re-analysis of the deposited data

How the results depend on the processing

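Of 132 values recomputed for 19 results, 117 stayed within 1.5 times the reported value, 13 moved further and 2 turned in sign. The increases over proliferation in length under peaks at 36 h and 72 h were among those that stayed, in all 3 windows and under each of the 7 settings run for them. The length of 72 h minus that of 36 h was less stable. At Mir206 and Mir133b it was -489 bp with a −log10 q of at least 5, -313 bp with lists of equal number and 1086 bp with a fold of at least 5, compared with 1738 bp. At Mir1a-2 and Mir133a-1 it was 71 bp with a −log10 q of at least 5 and with lists of equal number, 525 bp with a fold of at least 5 and 779 bp with the window widened by 10 kb on each side, compared with 131 bp. Peaks at Mir206 and Mir133b numbered 3 (−log10 q of at least 5) and 2 (fold of at least 5) in proliferation, 13 (fold of at least 5) and 15 (lists of equal number) at 36 h, and 17 at 72 h under each of these 3 settings. Gained regions numbered 8 when peaks within 1 kb were merged. By construction, the stricter lists and those of equal number hold fewer peaks, merging joins them and the wider window takes in more. No paired analysis was possible because each stage had 1 library and the labels give no replicate numbers; for the same reason no replicate could be left out. Depth limits the absence of proliferation peaks, since weak acetylation would not have been listed.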
